A study of Mus musculus with 12 samples.

Results

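The genes of the 3 TGF-beta ligands (Tgfb1, Tgfb2, Tgfb3), their 3 receptors (Tgfbr1, Tgfbr2, Tgfbr3), the signal carrier Smad3, the inhibitor Smad7 and the secreted protease gene Htra1 make up 9 of the 23337 genes in the count table. They were chosen by symbol with earlier results of these data known, because Tgfb2 counts were higher in quiescent cells and Htra1 counts were lower after Stag2 knockdown. Those differences are therefore given as descriptions without a test. All 9 genes passed the filter on low counts.

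Polyadenylated RNA of NU1 cells was sequenced. NU1 is an immortalised line of mouse urothelium, the lining of the bladder, that arose without an added oncogene. All 12 libraries came from cells transduced with a lentiviral hairpin, either the control hairpin shNT or sh4, the 1 hairpin against Stag2, a subunit of the cohesin complex that holds DNA in loops and sister chromatids together. Each hairpin was sampled in proliferating cells and in quiescent cells, which had been grown to confluence and then kept with rosiglitazone, a PPAR-gamma agonist, and erlotinib, an EGF receptor inhibitor, to day 7 of the protocol the labels call differentiation. The 4 groups are proliferating control, proliferating knockdown, quiescent control and quiescent knockdown, with 3 libraries in each, 1 from each of experiments 5, 7 and 9, which the labels also mark as batches. Confluence, both drugs and the time in culture cannot be told apart, and neither can loss of Stag2 and any other effect of the single hairpin.

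TGF-beta ligands are secreted in latent complexes that must be opened before they can bind. An active ligand joins the type II receptor, encoded by Tgfbr2, to the type I receptor, encoded by Tgfbr1, which then phosphorylates SMAD2 and SMAD3. These enter the nucleus with SMAD4 and regulate transcription, and SMAD7, itself induced by the pathway, acts back on the receptors. In many epithelia the pathway is known for holding cells in G1. HTRA1 is a secreted serine protease that cleaves extracellular matrix proteins and has been linked to signalling by TGF-beta family members.

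The start regions of Tgfb2 and Htra1 are shown because the values of these genes led to the choice of the 9. Both are RefSeq sequences of the build GRCm38.p6, from 250 bases before the RefSeq gene start to 50 after it, written 5′ to 3′ on the strand of the gene. Tgfb2 lies at chr1:186705940-186706239 on the minus strand, and the capitals mark an E-box (CACGTG) and a TATA box (TATAAA). Htra1 lies at chr7:130935953-130936252 on the plus strand, and the capitals mark a GC box (GGGCGG, here on the other strand and so printed CCGCCC) and a CCAAT box (CCAAT).
Tgfb2: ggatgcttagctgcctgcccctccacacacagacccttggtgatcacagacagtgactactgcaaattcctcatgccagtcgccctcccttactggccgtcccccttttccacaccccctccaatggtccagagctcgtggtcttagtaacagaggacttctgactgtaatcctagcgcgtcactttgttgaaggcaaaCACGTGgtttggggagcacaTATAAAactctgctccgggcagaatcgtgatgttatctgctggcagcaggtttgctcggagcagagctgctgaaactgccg
Htra1: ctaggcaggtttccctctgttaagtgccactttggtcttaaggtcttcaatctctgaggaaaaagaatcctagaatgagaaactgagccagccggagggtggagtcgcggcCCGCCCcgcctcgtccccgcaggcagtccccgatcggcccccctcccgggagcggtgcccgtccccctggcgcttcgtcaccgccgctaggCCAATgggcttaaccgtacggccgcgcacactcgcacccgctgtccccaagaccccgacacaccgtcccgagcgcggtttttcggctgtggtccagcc
The motifs were chosen with these sequences in view, were searched on both strands and are descriptions of letters, not sites shown to be bound. In Tgfb2 the TATA box began at -31 and the E-box at -51 relative to the RefSeq start, and lower-case matches to CCAAT at -130, to the TGACG core of a CRE at -72 and to the SMAD box CAGAC at -221 and -204 were also found. In Htra1 the CCAAT box began at -48, the GC box at -139 and TGACG at -64, with no match to the TATA box, E-box or SMAD box letters in this window. Among 32851 RefSeq windows of the same length, 13.6% held the TATA box letters, 7.2% the E-box, 20.8% the CRE core, 37.4% the CCAAT box, 35.7% the GC box and 49.6% the SMAD box. The RefSeq start of Tgfb2 is also the start of its GENCODE model. That of Htra1, at 130936203, lies 92 bases downstream of the GENCODE start, so its CCAAT box and CRE core fall inside the GENCODE model and the GC box before it. GC content was 54.3% in the Tgfb2 window and 65.0% in the Htra1 window.

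In the GENCODE M21 annotation of GRCm38 (mm10), Tgfb1 spans chromosome 7 from 25687002 to 25705077 and Htra1 the same chromosome from 130936111 to 130985660, inside the opposite-strand model of Fgfr2 with 0 shared exon bases. Tgfb2 spans chromosome 1 from 186622792 to 186705989 and Tgfb3 chromosome 12 from 86056745 to 86079041. Tgfbr1 spans chromosome 4 from 47353222 to 47414931, Tgfbr2 chromosome 9 from 116084293 to 116175360 and Tgfbr3 chromosome 5 from 107106570 to 107289629. Smad3 spans chromosome 9 from 63646767 to 63757994. Transcript models on the other strand overlapped 124 exon bases of Tgfb2 (2.14% of its exon bases) and up to 257 of Tgfb3 (7.6%). A same-strand model overlapped 297 exon bases of Tgfbr3. Reads in the same-strand bases could come from either gene whatever the strand setting. That setting of the authors' counting is not given in the sources used here, so the same holds for the opposite-strand bases.

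Libraries held 14524429 to 21987539 counts. Stag2 averaged 132.5 CPM (counts scaled to library totals after TMM) in proliferating control and 27.6 in proliferating knockdown cells, and 120.5 in quiescent control and 12.1 in quiescent knockdown cells. Of 18 urothelial and epithelial markers, 17 had a count, and together they gave 13150 to 24130 CPM in each library, most of it from the keratin genes Krt7, Krt8, Krt18, Krt19 and Krt20. Basal markers and uroplakin genes on the list were near 0 or low. The basal marker Trp63 had no count in any library. Krt5 reached at most 6.60 CPM and Krt14 at most 10.6 CPM, both in proliferating cells. The uroplakin genes Upk1a, Upk1b and Upk2 reached at most 3.94, 2.23 and 1.45 CPM, and Upk3a had 1 count in all. Transcription factor genes on the list were expressed, with Elf3 at 77.3 to 518 CPM, Gata3 at 26.5 to 118 and Foxa1 at 9.49 to 84.8. Pparg was low, at 1.79 to 8.65 CPM. The label of urothelium is thus carried by general epithelial genes, Krt20, Elf3, Gata3 and Foxa1 in these libraries. Fibroblast markers summed to 0.345 to 2.27 CPM with Col1a2, Col3a1 and Lum at 0, smooth muscle markers to 0.207 to 0.716, endothelial markers to at most 0.239, and leukocyte markers to 1.61 to 9.42 with Cd3e at 0. Each replicate is 1 experiment of a single line, so p-values measure the spread between these experiments.

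Tgfb2, 1 of the 3 ligand genes, was low in proliferating and high in quiescent cells, with or without knockdown. In proliferating control cells it stood at 2.41, 3.64 and 1.71 CPM in experiments 5, 7 and 9, from 43, 63 and 30 counts. In quiescent control cells it stood at 33.0, 36.7 and 27.5 CPM, from 478, 600 and 461 counts. The lowest quiescent library lay above the highest proliferating one. In proliferating knockdown cells the values were 2.45, 3.46 and 1.61 CPM, and in quiescent knockdown cells 28.0, 29.2 and 33.1. The ratio of means, quiescent over proliferating, was 12.5 in control and 12.02 in knockdown cells, and the fitted log2 differences were 3.65 (SE 0.31) and 3.59 (SE 0.31). Because these contrasts chose the gene, they carry no test, and the order of all 4 groups rests on them.

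Knockdown left Tgfb2 without a detectable difference in either state, and this comparison did not enter the choice of the gene. The log2 difference, knockdown over control, was -0.05 (SE 0.31 and adjusted p = 1) in proliferating cells and -0.11 (SE 0.27 and adjusted p = 0.926) in quiescent cells, by the edgeR quasi-likelihood test. The groups overlapped in both states. A proliferating library held at most 63 counts of the gene.

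**Figure D1:**
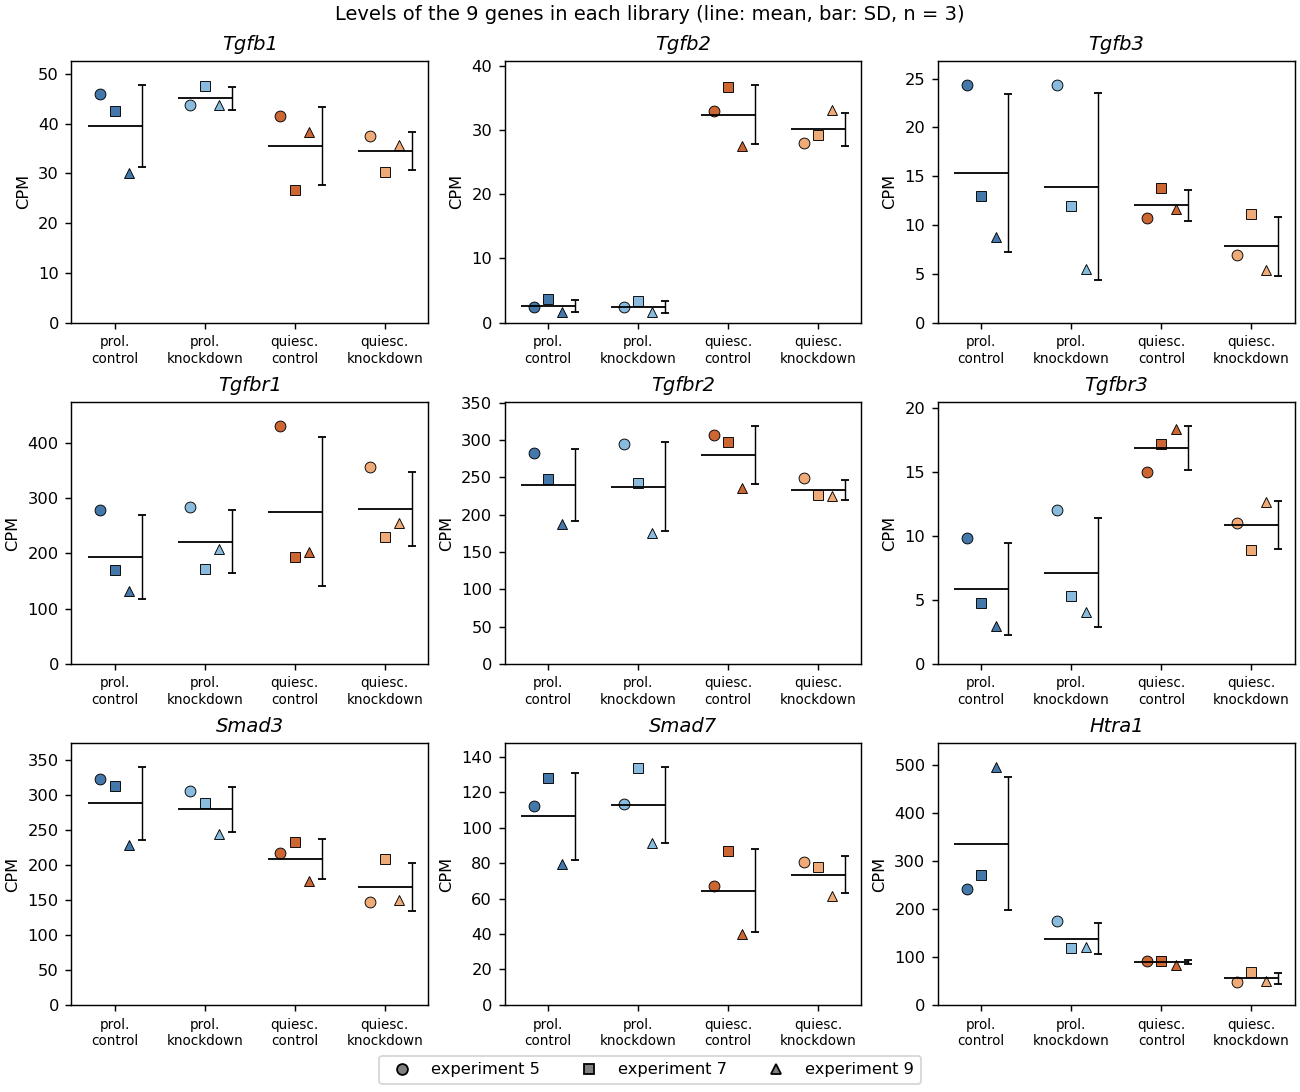
Levels of the 9 genes in CPM on linear axes that start at 0, by group, with experiment 5 as circles, 7 as squares and 9 as triangles; lines are means and bars are SD (n = 3). Tgfb2 was at or below 3.64 CPM in every proliferating library and at or above 27.5 in every quiescent one, and Htra1 was highest in the 3 proliferating control libraries.

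The mean of Tgfb1, the gene of the ligand TGF-beta1, was 39.5 ± 8.28 CPM in proliferating control, 45.1 ± 2.24 in proliferating knockdown, 35.6 ± 7.82 in quiescent control and 34.5 ± 3.83 in quiescent knockdown cells (SD, n = 3). The control groups overlapped, whereas the knockdown groups did not, at 43.8 to 47.7 CPM in proliferating and 30.2 to 37.6 in quiescent cells, a log2 difference of -0.38 (SE 0.19 and adjusted p = 0.181 by edgeR). Tgfb3, the gene of TGF-beta3, varied with the experiment. In proliferating cells it stood at 24.4, 12.9 and 8.75 CPM in control and at 24.3, 11.97 and 5.51 CPM in knockdown cells of experiments 5, 7 and 9. In quiescent cells it stood at 10.7, 13.8 and 11.6 CPM in control and at 6.89, 11.2 and 5.39 CPM in knockdown cells. Tgfb3 was lower with knockdown in all 3 quiescent experiments, by a log2 difference of -0.62 (SE 0.50), but the groups overlapped and the edgeR adjusted p was 0.701. Neither Tgfb1 nor Tgfb3 passed the test in any contrast.

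Levels of different genes were compared per kilobase of the median coding transcript. On that scale Tgfb2 made up 2.60% ± 0.801 of the 3 ligand transcripts in proliferating control and 2.26% ± 0.712 in proliferating knockdown cells, against 27.7% ± 5.80 in quiescent control and 27.8% ± 2.36 in quiescent knockdown cells (SD, n = 3). Tgfb1 had the highest share in every group, with means of 78.7%, 82.2%, 59.1% and 62.9% in the same order. Tgfb3 followed with 18.7%, 15.5%, 13.1% and 9.27%, so that Tgfb2 stood below Tgfb3 in proliferating cells and above it in quiescent cells. The summed level of the 3 ligands was 23.3 ± 6.05, 25.4 ± 2.97, 27.4 ± 2.53 and 25.2 ± 1.04 CPM per kb, and these ranges overlapped. The Tgfb2 shares rest on the values that chose the gene and have no test.

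**Figure D2:**
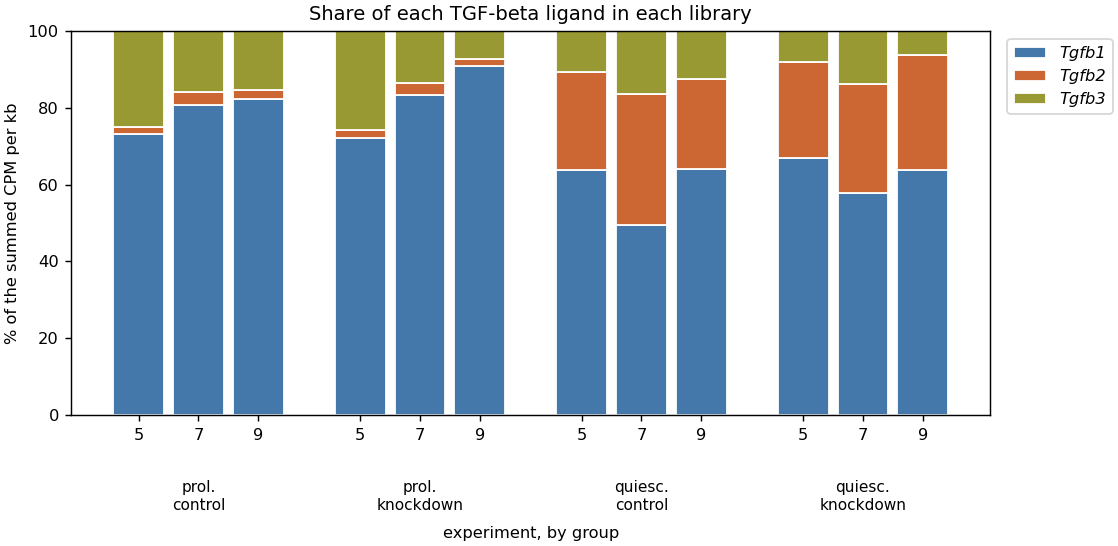
Share of each TGF-beta ligand gene in the summed CPM per kb of the 3, in percent, with 1 stacked bar for each library, grouped by state and hairpin. The Tgfb2 segment averaged 2.60% in proliferating control and 27.7% in quiescent control libraries, and Tgfb1 was the largest segment in all 12.

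Among the receptor genes, Tgfbr3 was the 1 that passed the test with quiescence. It encodes betaglycan, a coreceptor that presents ligand, TGF-beta2 above all, to the type II receptor. In proliferating control cells Tgfbr3 stood at 9.87, 4.79 and 2.96 CPM in experiments 5, 7 and 9, from 176, 83 and 52 counts, and in quiescent control cells at 15.0, 17.3 and 18.4 CPM, from 218, 282 and 309 counts. The groups did not overlap, and the gene rose by a log2 fold change of 1.52 (SE 0.45), with an edgeR adjusted p of 0.0359. This call was lost in 5 of the 6 fits that left out 1 library, with adjusted p from 0.0662 to 0.122, and held without proliferating control experiment 5, at 0.00775. It also missed the threshold when only the 6 control libraries were fitted, with an adjusted p of 0.0521. These fits did not match the experiments. With the experiment as a block over all 12 libraries, the log2 fold change was 1.67 (edgeR adjusted p of 0.00692).

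In knockdown cells Tgfbr3 stood at 12.01, 5.30 and 4.07 CPM when proliferating and at 11.0, 8.95 and 12.7 CPM when quiescent. These groups overlapped, and the log2 fold change with quiescence was 0.61 (SE 0.45 and adjusted p = 0.367 by edgeR). Knockdown against control gave 0.28 (SE 0.45) in proliferating cells. In quiescent cells it gave -0.63 (SE 0.44), where every knockdown library lay below every control library, with an edgeR adjusted p of 0.642. The test of the difference between the knockdown effects of the 2 states gave -0.91 (SE 0.63), with an unadjusted p of 0.173 and an adjusted p of 1 by edgeR.

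Tgfbr1 and Tgfbr2, which form the signalling receptor, did not pass the test in any contrast of the fit without experiments. Tgfbr1 stood at 279, 170 and 132 CPM in proliferating control and at 431, 194 and 203 CPM in quiescent control cells, and at 283, 172 and 208 CPM and 356, 230 and 255 CPM in the matching knockdown groups. Experiment 5 was highest in every group, and groups overlapped. Within each experiment Tgfbr1 was higher in quiescent than in proliferating cells, in control and in knockdown cells alike. In control cells the log2 fold change was 0.51 (SE 0.35 and adjusted p = 0.334 by edgeR). With the experiment as a block it was 0.48 (edgeR adjusted p of 0.0355). Tgfbr2 averaged 239 ± 48.3, 238 ± 59.6, 280 ± 38.8 and 233 ± 13.3 CPM (SD, n = 3) in proliferating control, proliferating knockdown, quiescent control and quiescent knockdown cells, and these ranges overlapped. Per kilobase, Tgfbr3 stood at 1.73 CPM in proliferating and 4.99 in quiescent control cells, below Tgfbr2 at 41.4 and 48.4 in the same groups, and beyond their spread.

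Smad3 and Smad7 were both lower in quiescent cells. Smad3, the transcription factor activated by the type I receptor, stood at 323, 313 and 229 CPM in proliferating control and at 217, 233 and 177 CPM in quiescent control cells. In knockdown cells it stood at 307, 289 and 244 CPM when proliferating and at 147, 209 and 150 CPM when quiescent. The knockdown groups did not overlap, whereas the lowest proliferating control library, of experiment 9, lay below the highest quiescent one. Smad3 fell with quiescence in knockdown cells by a log2 fold change of -0.73 (SE 0.19 and adjusted p = 0.0194 by edgeR). In control cells the value was -0.47 (SE 0.18 and adjusted p = 0.0976), and with the experiment as a block it was -0.46 (edgeR adjusted p of 0.016). The call in knockdown cells was lost in 4 of 6 fits that left out 1 library (knockdown experiment 5 or 7 when proliferating, 5 or 9 when quiescent), with edgeR adjusted p from 0.0537 to 0.0846.

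Smad7, a target of the pathway that feeds back on the receptors, stood at 112, 128 and 79.4 CPM in proliferating control and at 66.8, 86.8 and 40.0 CPM in quiescent control cells. In knockdown cells it stood at 114, 134 and 91.1 CPM when proliferating and at 80.7, 77.8 and 61.4 CPM when quiescent. The control groups overlapped and the knockdown groups did not. Smad7 was lower in the quiescent library of each experiment, with log2 fold changes of -0.72 (SE 0.27 and adjusted p = 0.0786 by edgeR) in control and -0.62 (SE 0.27 and adjusted p = 0.127) in knockdown cells. With the experiment as a block these were -0.75 (edgeR adjusted p of 0.00165) and -0.61 (adjusted p of 0.0054), so Smad7 passed in both only when the experiments were matched. Without quiescent control experiment 7 it also passed in control cells, at -0.99 (edgeR adjusted p of 0.0345).

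Htra1 was highest in proliferating control cells and lower with knockdown and with quiescence. It stood at 242, 271 and 495 CPM in proliferating control and at 174, 118 and 121 CPM in proliferating knockdown cells. In quiescent cells it stood at 91.8, 92.0 and 83.6 CPM in control and at 47.9, 68.5 and 50.04 CPM in knockdown cells. No 2 groups overlapped. After knockdown the mean was 41.0% of control in proliferating and 62.2% in quiescent cells, with log2 differences of -1.29 and -0.68, which chose the gene and have no test. The proliferating difference was -0.90 without control experiment 9, the highest library, and the within-experiment values were -0.47, -1.20 and -2.03 in experiments 5, 7 and 9.

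With quiescence Htra1 fell by log2 fold changes of -1.91 (SE 0.27 and adjusted p = 0.000787 by edgeR) in control and -1.31 (SE 0.27 and adjusted p = 0.0065) in knockdown cells. All 3 experiments showed the fall in both, and it passed the threshold in all 6 fits that left out 1 library of each contrast. These contrasts share their libraries with the knockdown contrasts that chose the gene, so a high proliferating control library enters both, and they are not independent of the choice. Fewer cells expressing a gene and less RNA per cell cannot be told apart in such bulk libraries.

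**Figure D3:**
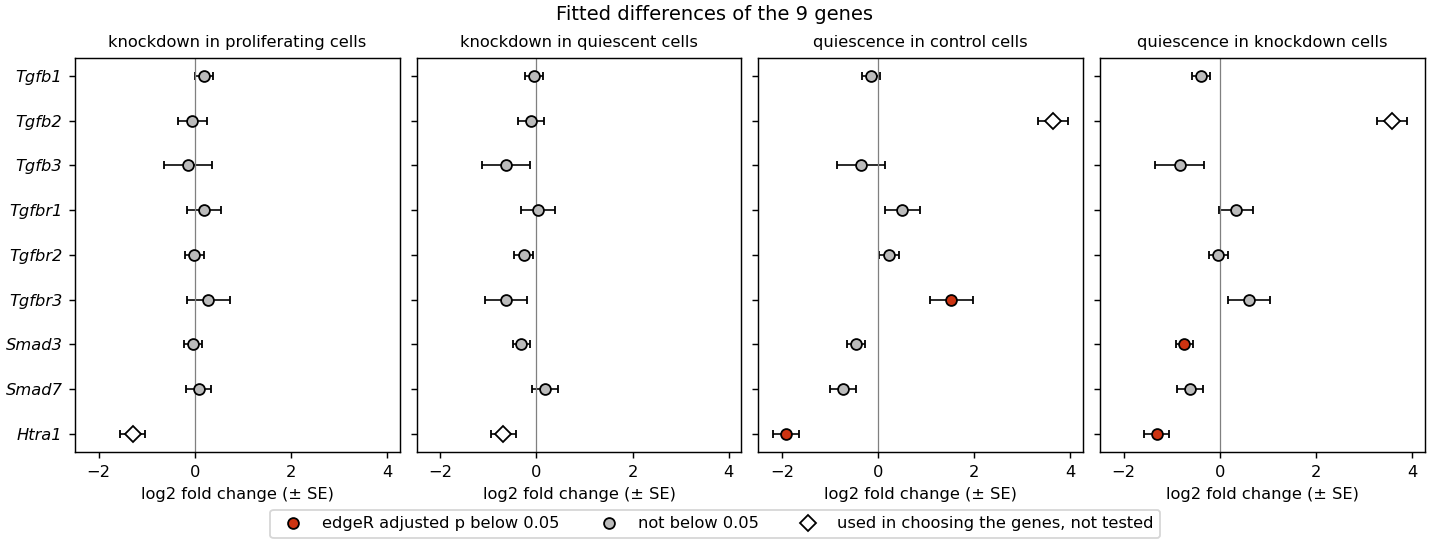
Fitted log2 fold changes of the 9 genes with their SE (horizontal bars) in the 4 contrasts; red points passed the adjusted p threshold of 0.05, grey points did not, and open diamonds are the differences that chose the genes. Htra1 fell in both quiescence contrasts, Tgfbr3 rose in control cells at 1.52 and Smad3 fell in knockdown cells at -0.73.

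Counted over the 8 genes other than Tgfb2, 2 of 8 passed with quiescence in control cells, Tgfbr3 upward and Htra1 downward. Of all 12406 genes tested, 20.0% passed in that contrast, 8.33% upward and 11.7% downward. In knockdown cells 2 of 8 passed, Htra1 and Smad3, both downward, where 18.4% of all genes passed, 7.59% upward and 10.8% downward. With the experiment as a block, 5 of 8 passed in control cells (Tgfbr1 and Tgfbr3 upward, Smad3, Smad7 and Htra1 downward), where 35.3% of all genes passed, 16.8% upward and 18.5% downward. In knockdown cells 3 of 8 passed with the block, with Smad7 joining Htra1 and Smad3, where 33.0% of all genes passed, 15.9% upward and 17.2% downward. The share of these genes that passed without the block, 25.0% in each contrast, was near that of all genes. With the block it was 62.5% in control cells, above the 35.3% of all genes, and 37.5% in knockdown cells, near the 33.0%. Htra1 is in all of these counts, although its libraries also form the knockdown contrasts that chose it. Without Htra1, 1 of 7 passed in each contrast, Tgfbr3 in control and Smad3 in knockdown cells. With the block 4 and 2 of 7 passed, or 57.1% and 28.6%. For the 8 genes the median log2 fold change was -0.25 in control and -0.50 in knockdown cells, with Htra1 among them. Without Htra1 it was -0.15 and -0.38 over the 7 genes, against 0.0047 and 0.0045 over all genes tested.

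Knockdown changed none of the 8 genes other than Htra1 past the threshold in either state. In proliferating cells edgeR called 0 of 8, with or without the block, and DESeq2 0, and 0 had an unadjusted p below 0.05, where edgeR called 0.0242% of all genes with and without the block. In quiescent cells edgeR and DESeq2 each called 0 of 8, and 0 had an unadjusted p below 0.05 in edgeR without the block and 1 with it. That gene was Smad3, at a log2 difference of -0.31 with the block (edgeR unadjusted p of 0.0308 and adjusted p of 0.191). In that contrast 0.435% of all genes passed, and 3.55% with the block. For the difference between the knockdown effects of the 2 states, edgeR called 0 of the 7 genes outside the choice and 0% of all genes, with and without the block, with 0 of 7 below 0.05 unadjusted, and DESeq2 called 0 of 7. Few genes anywhere passed in these contrasts, so the counts of 0 do not set these genes apart.

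Other genes of the pathway were taken from 7 lists of 78 genes, of which 61 passed the filter on low counts. With quiescence 18 of 61 passed in control cells, 8 upward and 10 downward, and 15 passed in knockdown cells, 6 upward and 9 downward. These are 29.5% and 24.6%, against 20.0% and 18.4% of all genes. The same 20.0% and 18.4% of all genes stand beside the counts of the single lists below. The median log2 fold change of the 61 genes was 0.05 in control and -0.01 in knockdown cells. With the experiment as a block, 25 passed in each contrast, or 41.0%, against 35.3% and 33.0% of all genes.

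Among the 10 tested genes of ligand storage and activation, 4 passed in control cells, 3 of them upward. Lrrc32, which encodes GARP, a protein that holds latent TGF-beta at the cell surface, rose by 2.88 (SE 0.39 and adjusted p = 0.000601 by edgeR) in control and 3.56 (SE 0.40 and adjusted p = 0.000433) in knockdown cells on the log2 scale. It stood at 2.19, 0.866 and 1.19 CPM in proliferating and at 10.0, 11.9 and 9.54 CPM in quiescent control cells, without overlap. Itgb6, a chain of an integrin that activates latent TGF-beta, rose by 1.34 in knockdown cells. In control cells it passed at 0.99 but was higher in only 2 of 3 experiments. Ltbp1, which tethers latent ligand to the matrix, fell by -2.42 (SE 0.61 and adjusted p = 0.0185 by edgeR) in control cells, and Ltbp3, of the same family, rose by 0.37. The median of the list was -0.21 in control and -0.10 in knockdown cells.

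Of the 7 other receptors, SMADs and adaptors, 1 passed in each contrast. Eng, which encodes the coreceptor endoglin, fell by -1.83 in control cells, and Acvrl1, a type I receptor, fell by -1.62 in knockdown cells. Eng was low, with 21 to 38 counts in a proliferating control library and 2 to 11 in a quiescent one. Of 11 inhibitors and feedback genes, 2 passed in control and 3 in knockdown cells. The ubiquitin ligase gene Nedd4l rose by 1.22 and 0.99 and the ubiquitin ligase gene Smurf1 fell by -0.50 and -0.82, in control and knockdown cells, and the corepressor gene Tgif1 fell by -0.52 in knockdown cells.

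Of 15 tested genes that TGF-beta is known to raise, 7 passed in control cells, 2 upward and 5 downward, and 8 in knockdown cells, 3 upward and 5 downward. Cdkn1a, which encodes the cell cycle inhibitor p21, rose by 1.20 (SE 0.23 and adjusted p = 0.00421 by edgeR) in control and 1.08 (SE 0.23 and adjusted p = 0.00753) in knockdown cells. Pdgfb, a growth factor gene, rose by 1.25 and 1.18, and Col4a1, a basement membrane collagen gene, rose by 1.04 in knockdown cells. Timp1, a metalloprotease inhibitor gene, fell by -3.43 and -2.88 and the transcription factor gene Snai2 by -2.67 and -2.98, in control and knockdown cells. Mmp9, which encodes a secreted metalloprotease, also passed downward in both, but it held at most 1 count in a quiescent library and 3 to 60 in a proliferating one, so its fitted fold is no measure of size. The median of the list was 0.24 in control and -0.18 in knockdown cells, and members passed in both directions.

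**Figure D4:**
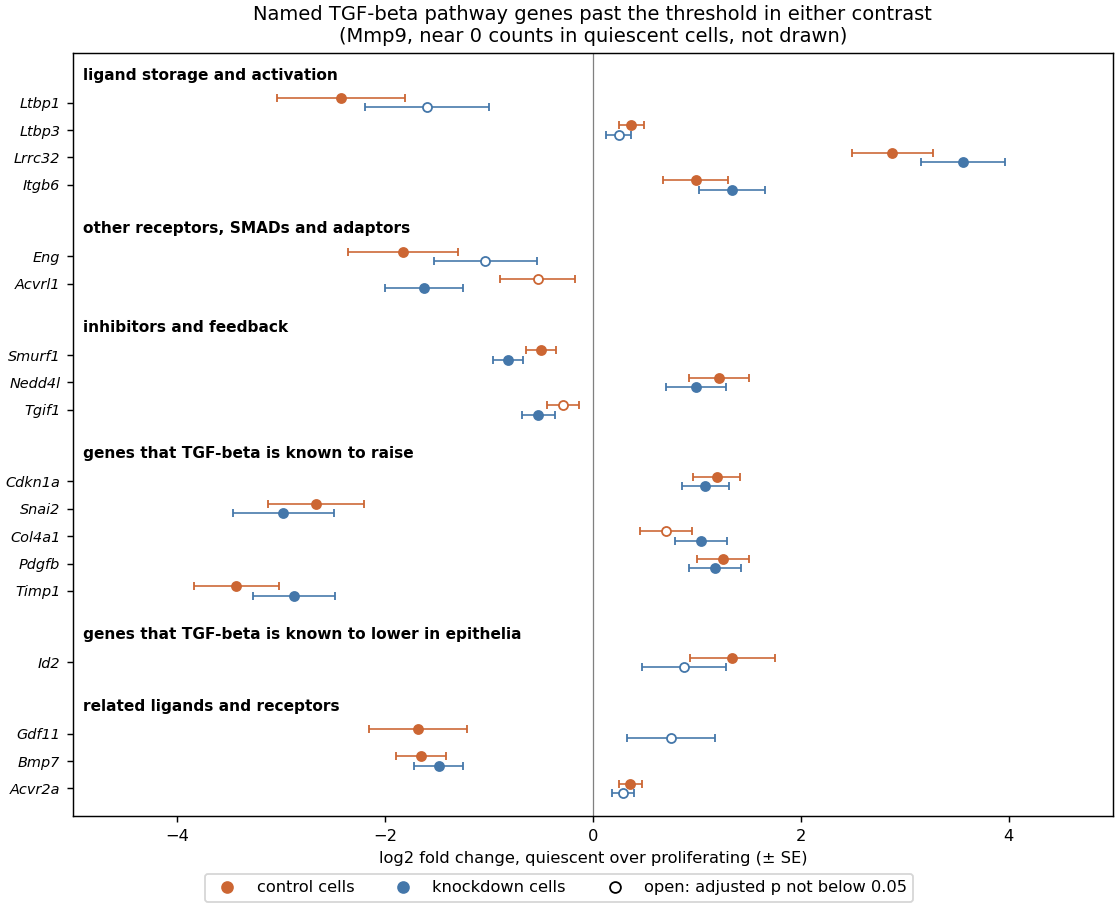
Log2 fold changes, quiescent over proliferating, with SE (bars) for the pathway genes named in the text that passed in control (orange) or knockdown cells (blue); filled points passed the adjusted p threshold of 0.05. Lrrc32 lay at 2.88 and 3.56, Timp1 at -3.43 and -2.88, and every list with more than 2 genes drawn held points on both sides of 0; Mmp9 is left out because of its near-zero counts.

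Of the 5 genes that TGF-beta is known to lower in epithelia, 1 passed, Id2, an inhibitor of bHLH factors, at 1.34 in control cells. Among 12 tested related ligands and receptors, the ligand gene Bmp7 fell by -1.65 in control and -1.48 in knockdown cells. In control cells the activin receptor gene Acvr2a rose by 0.36 and the ligand gene Gdf11 fell by -1.68. Gdf11 was low, with 21 to 36 counts in a proliferating control library and 5 to 10 in a quiescent one. The 1 tested relative of Htra1, Htra2, did not pass in either contrast. With the experiment as a block, Htra2 passed in control cells at -0.46 (adjusted p = 0.0239 by edgeR), and so did 3 of the 5 genes that TGF-beta is known to lower, with the cadherin gene Cdh1 at 0.76 and the transcription factor gene Myc at -1.15 (adjusted p = 0.00828 and 0.00319), while Myc also passed in knockdown cells at -0.78 (adjusted p = 0.0211). In knockdown cells the block also raised the counts from 2 to 4 for storage and activation and from 3 to 5 for inhibitors. It raised them from 1 to 3 for other receptors, SMADs and adaptors and from 1 to 4 for related ligands and receptors. Over all genes the block raised the share that passed from 20.0% to 35.3% in control and from 18.4% to 33.0% in knockdown cells.

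With knockdown, 0 of the 61 pathway genes passed in proliferating cells by edgeR, where 0.0242% of all genes did, with 2 below an unadjusted p of 0.05, and 0 by DESeq2. In quiescent cells 1 passed, or 1.64% against 0.435% of all genes. It was Gdf11, a ligand of the activin branch. It stood at 0.690, 0.306 and 0.596 CPM in quiescent control and at 3.90, 3.64 and 6.21 CPM in quiescent knockdown cells, from 5 to 10 and from 61 to 106 counts. The groups did not overlap, and the gene rose by a log2 fold change of 3.10 (SE 0.48 and adjusted p = 0.0257 by edgeR). The call was lost in 5 of 6 fits that left out 1 library and held without quiescent knockdown experiment 7. With the experiment as a block 3 passed, or 4.92% against 3.55% of all genes. They included Gdf11, at 3.09 (edgeR adjusted p of 0.00355). The others were Cdkn2b, which encodes the cell cycle inhibitor p15, at -0.77 (edgeR adjusted p of 0.029) and Inhba, which encodes the activin A chain, at 1.50 (adjusted p of 0.041). No pathway gene passed the edgeR test of the difference between the knockdown effects of the 2 states, with 2 below an unadjusted p of 0.05, and DESeq2 called 0.

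Genes with the pattern most like each of Tgfb2, Htra1 and Tgfbr2 were named by Pearson's r of log2 CPM over the 12 libraries, each centred on its experiment, among 10301 genes. The 12 libraries share groups and experiments, so these values are descriptions. For Tgfb2 they were AI848100 (0.997), Ube2e2 (0.993), Stx7 (0.992), Napg (0.991) and Ypel5 (0.991). For Htra1 they were Ascc2 (0.975), Socs6 (0.972), Slc20a1 (0.964), Mtrr (0.963) and B3galnt2 (0.963). For Tgfbr2 they were lower, from 0.945 for Fam114a1 to 0.909 for N4bp1, with Arhgap42, Armcx3 and Gpr126 between them. Without centring, Napg and Ypel5 left the top 5 of Tgfb2, every named gene but Slc20a1 left that of Htra1, and Fam114a1, Armcx3 and N4bp1 left that of Tgfbr2. The r of Ypel5 with Tgfb2 was then 0.808 and that of Fam114a1 with Tgfbr2 0.574.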

How the data were processed

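RNA of 12 NU1 libraries was sequenced from polyadenylated RNA, with a strand-marking kit per the labels' protocols. The deposited values are raw counts per gene. Per the submitters' processing notes, Bowtie, TopHat, HTSeq and DESeq2 were used with the mouse build mm10; versions, roles and the annotation are not given in the sources used here. Groups and experiments came from the labels.

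Counts were fitted in R 4.3.3 with edgeR 4.0.16 (quasi-likelihood F-test, TMM, 4 group means over all 12 libraries). Genes had to pass edgeR's filter at a minimum count of 10, which left 12406 of 23337. P-values were adjusted by Benjamini-Hochberg over all of these, with a threshold of 0.05. SEs were derived from the fold change and the F statistic. Library totals of 14524429 to 21987539 set the precision of low genes. The fit without the block was tested on simulated counts. It called 41% of the genes given a log2 change of 1 in quiescent control cells and 78% of those given 2. Only 100 genes of 12406 were given each change, and the simulation held no effect of experiment. These shares therefore need not hold for the real counts.

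Experiment numbers pair the samples, because the labels mark them as batches. Deviations from group means correlated between libraries of 1 experiment in all 18 pairs (0.225 to 0.789, mean 0.526) and averaged -0.259 across experiments. The fit with experiment as a block was therefore run too. Where the block is not named, values are from fits without it, whose spread includes the differences between experiments. A gene that did not pass there may pass when experiments are matched. Other alternatives were DESeq2 1.42.0, other size factors, other filters, only the contrast's libraries, and leaving out each library. Replicates differed by 36.6 to 99.7 times the sampling noise (chi-square per degree of freedom), so no pair agreed within it and each was counted as 1 sample.

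The 9 genes, the lists and the naming rule were chosen with earlier results of these data known. Named besides the 9 are pathway genes past the threshold with 1 sign in all 3 experiments, at most 4 per list and direction, and the 5 genes most like Tgfb2, Htra1 and Tgfbr2; 1 item that met this rule is not reported here. Levels between genes used the median coding transcript length, or the longest as an alternative; Smad3 and Smad7 were left out of that, since their annotated lengths vary widely. Sequences are from RefSeq (GRCm38.p6), where 6 of the 9 genes had a window.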

Additional observations from a re-analysis of the deposited data

Results flagged for a closer look

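The Tgfbr3 values lay in opposite directions with Stag2 knockdown in the 2 states, in every experiment of each. In proliferating cells the log2 difference averaged 0.29 over the experiments and was above 0 in 3 of 3 (0.28, 0.14 and 0.45). In quiescent cells it averaged -0.64 and was below 0 in 3 of 3 (-0.45, -0.94 and -0.53). The test of the difference itself gave -0.91 (SE 0.63, edgeR unadjusted p of 0.173 and adjusted p of 1), which does not pass the threshold. Proliferating libraries held 52 to 206 counts of this gene.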

How the results depend on the processing

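The fit with experiment as a replicate block raised the count over the 8 genes other than Tgfb2 with quiescence in control cells from 2 to 5, that of pathway genes from 1 to 3 (knockdown, quiescent cells) and from 15 to 25 (quiescence, knockdown cells), and that of all genes to 440 (knockdown, quiescent cells), 4374 and 4096 (quiescence, control and knockdown cells). It turned Tgfbr2 with quiescence in knockdown cells to 0.0063. It changed no other call of the 9 genes than those given beside them. DESeq2 gave 3 pathway genes and 390 of all genes for knockdown in quiescent cells, 12 for knockdown in proliferating cells and 6 for the difference between states. With a mean count of at least 50, 0 pathway genes passed for knockdown in quiescent cells. Gdf11, the gene called there, fell below this filter and was not tested, so that 0 is no second result for it. With only the libraries of the contrast, 1 gene of the 8 and 11 pathway genes passed with quiescence in control cells, as did 1582 of all genes, and 1 of all genes with knockdown in proliferating cells.

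Leaving out 1 library at a time gave 1 to 2 of the 8 in both quiescence contrasts, 10 to 16 pathway genes with quiescence in control cells and 0 to 1 with knockdown in quiescent cells. Of all genes, 1 to 2 passed with knockdown in proliferating cells, 5 to 60 in quiescent cells, and 1394 to 3078 and 1186 to 2029 with quiescence in control and knockdown cells. Values that had not passed changed sign. With knockdown in proliferating cells the ranges were -0.35 to 0.28 for Tgfb2, -0.81 to 0.36 for Tgfb3, -0.0295 to 0.549 for Tgfbr1, -0.19 to 0.16 for Tgfbr2, -0.33 to 0.88 for Tgfbr3, -0.18 to 0.048 for Smad3 and -0.0893 to 0.236 for Smad7. In quiescent cells they were -0.215 to 0.0789 for Tgfb1, -0.19 to 0.49 for Tgfbr1 and -0.0679 to 0.455 for Smad7. With quiescence they were -0.316 to 0.0272 for Tgfb1 and -0.63 to 0.15 for Tgfb3 in control cells, and -0.20 to 0.16 for Tgfbr2 in knockdown cells. For the difference between states they were -0.39 to 0.24 for Tgfb2, -0.99 to 0.19 for Tgfb3, -0.53 to 0.30 for Tgfbr1 and -0.15 to 0.37 for Smad7. The cause of these changes was not tested beyond fewer libraries in the fit. Low counts limit Tgfb2 and Tgfbr3 in proliferating cells, and 3 experiments limit every test.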
